A study of Mus musculus with 6 samples.

Results

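The 10 genes described here encode scavenger receptors and allied clearance proteins of macrophages: Cd36, Scarb1, Msr1, Marco, Olr1, Stab1, Cd163, Cd5l, Vsig4 and Folr2. They were taken by name from the 24062 gene symbols counted in each library, where all 10 were present, and 9 had enough counts to be tested. The high tension group was grown on a stiff 50 kPa surface and the low tension group on a soft 2 kPa surface, with 3 libraries each. All cultures were C57BL/6J mouse femur and tibia marrow in GM-CSF at 20 ng/ml, with fresh cytokine on days 3, 6 and 10. No sort and no animal age are given, so each library averages over every cell of its culture. In such bulk samples a smaller number of cells of a type and less RNA per cell cannot be told apart. Whether the replicates were separate cultures or animals is not stated, so p-values measure the spread between these libraries, which may be technical.

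Scavenger receptors bind modified lipoproteins, polyanions, microbial surfaces and cell debris, and carry them into the cell. They are grouped by structure. Class A receptors have a collagen-like stalk, class B receptors cross the membrane at both ends, class E receptors are lectin-like, class H receptors carry repeated fasciclin domains, and CD163 is built of scavenger receptor cysteine-rich domains. Several of them, such as Cd163, Cd5l, Vsig4 and Folr2, are used as markers of tissue macrophages, whereas Cd36, Scarb1 and Olr1 are also made by many other cells. GM-CSF cultures of marrow hold macrophage-like cells beside dendritic cells.

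The class A genes share the coding feature that defines their class, so its presence in them is not a separate result. The collagen-like stalk repeats a triplet of residues that starts with glycine, so its coding sequence has a GGN codon in each triplet of codons. The longest such run was 81 triplets in Marco and 25 in Msr1, against 1 to 3 in the other 8 genes. A stretch of 10 triplets from the start of the run in Marco (transcript of 518 codons, GENCODE vM21, chromosome 1, minus strand) is shown with its glycine codons in capitals, because this stalk is the part that defines the class.
Marco collagen-like repeat: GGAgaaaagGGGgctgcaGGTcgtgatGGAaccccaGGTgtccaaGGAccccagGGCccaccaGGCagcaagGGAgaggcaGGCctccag

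RefSeq promoter windows (GRCm38.p6) were found for 8 of the 10 genes, with 2 windows for Folr2, and not for Msr1 and Scarb1. The 250 bases before the start were searched on both strands for the PU.1 core GAGGAA, the AP-1 site TGANTCA, the nuclear receptor half-site AGGTCA and the MAF half-site TGCTGAC. The PU.1 letters stood in 5 of the 9 windows (Marco, Cd5l, Olr1, Stab1 and Vsig4), and in 23.3% of all 32851 promoter windows of this length. The AP-1 letters stood in the windows of Olr1 and Folr2 (6.75% of all windows), the nuclear receptor letters in those of Cd36 and Olr1 (14.0%), and the MAF letters in 0 windows (3.81%). Such matches are letters in a window and do not show binding. The windows of Cd36, the gene with the smallest p, of Marco, the gene with the most negative fold change, and of Olr1, which held 3 of the motifs, are printed 5′ to 3′ with those motifs in capitals, on the printed strand or as their reverse complement. They lie at chr5:17835897-17836146, chr1:120505025-120505274 and chr6:129507166-129507415, each on the minus strand. The RefSeq start of Cd36 lies inside the gene as annotated by GENCODE.
Cd36 promoter: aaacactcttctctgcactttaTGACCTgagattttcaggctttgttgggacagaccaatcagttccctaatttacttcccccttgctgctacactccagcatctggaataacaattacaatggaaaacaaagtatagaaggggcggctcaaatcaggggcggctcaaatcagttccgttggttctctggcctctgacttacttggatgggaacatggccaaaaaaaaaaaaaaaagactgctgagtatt
Marco promoter: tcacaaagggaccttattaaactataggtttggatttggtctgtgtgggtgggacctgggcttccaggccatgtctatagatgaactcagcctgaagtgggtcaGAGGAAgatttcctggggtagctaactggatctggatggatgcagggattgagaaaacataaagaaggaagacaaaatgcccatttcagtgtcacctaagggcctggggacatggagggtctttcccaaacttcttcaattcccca
Olr1 promoter: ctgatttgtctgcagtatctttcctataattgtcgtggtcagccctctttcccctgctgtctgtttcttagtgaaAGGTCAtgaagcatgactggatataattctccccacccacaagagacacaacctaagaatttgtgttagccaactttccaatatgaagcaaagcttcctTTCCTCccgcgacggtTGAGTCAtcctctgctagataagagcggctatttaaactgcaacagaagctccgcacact

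Libraries held 33834485 to 36109809 counts at 50 kPa and 35912742 to 36270938 counts at 2 kPa. The first principal component (67.9% of the variance) put high tension replicate 3 and low tension replicate 1 nearest the middle, between the other stiff and the other soft cultures. High tension replicates 1 and 2 were closer to each other than any other pair within a group (chi-square per degree of freedom 6.71, and 126 to 233 for the others). The libraries are titled as dendritic cells. Itgax (CD11c) ranged from 1412 to 2958 CPM at 50 kPa and from 299 to 1109 CPM at 2 kPa, while Flt3, a receptor of classical dendritic cells, stood at 2.09 to 3.99 CPM at 50 kPa and 4.22 to 9.19 CPM at 2 kPa. The macrophage markers Emr1 (the F4/80 gene) and Csf1r stood at 405 to 595 and 800 to 908 CPM at 50 kPa, and at 334 to 556 and 625 to 777 CPM at 2 kPa.

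Levels were compared between genes as normalised CPM per kb of exon. At 50 kPa Msr1 stood highest at 117 ± 3.25 CPM per kb (SD, n = 3, as for all means below), followed by Cd36 at 57.5 ± 2.84 and Marco at 25.9 ± 7.78. Scarb1 and Olr1 followed at 16.7 ± 3.21 and 15.8 ± 3.00 CPM per kb, then Cd5l at 5.33 ± 3.17 and Stab1 at 4.72 ± 2.23. Folr2 and Cd163 were lower by more than an order of magnitude, at 0.322 ± 0.0353 and 0.107 ± 0.0289 CPM per kb. At 50 kPa the ranges of Marco and Scarb1, of Scarb1 and Olr1, and of Cd5l and Stab1 overlapped, while the other tested neighbours in this order did not overlap.

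At 2 kPa the order per kb was Msr1 (89.0 ± 28.7), Marco (39.1 ± 14.6), Cd36 (37.0 ± 4.86), Olr1 (13.2 ± 10.1), Scarb1 (10.2 ± 2.40), Stab1 (5.45 ± 2.21), Cd5l (1.85 ± 1.23), Folr2 (0.127 ± 0.0860) and Cd163 (0.0396 ± 0.0202). Here the ranges of Marco and Cd36, of Olr1 and Scarb1, and of Folr2 and Cd163 overlapped. Msr1 took 46.5% to 50.0% of the summed level per kb of the 10 genes at 50 kPa and 42.2% to 46.6% at 2 kPa. Marco took 7.27% to 12.8% at 50 kPa and 18.0% to 21.6% at 2 kPa, so its ranges did not overlap. The ranges of its CPM did overlap. The shares of Cd36 (23.3% to 24.0% at 50 kPa and 16.2% to 22.0% at 2 kPa) did not overlap either. Nor did those of Folr2 (0.119% to 0.146% at 50 kPa and 0.0324% to 0.114% at 2 kPa). Shares of a sum depend on each other, so a higher level of other members lowers the share of Marco.

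**Figure D1:**
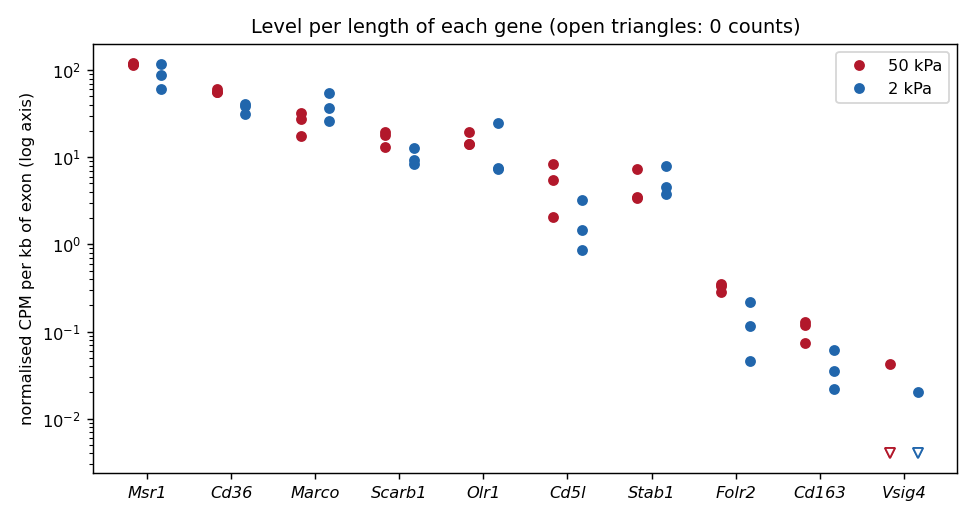
Level of each of the 10 genes as normalised CPM per kb of exon, on a log axis, with a point for each library at 50 kPa (left of each pair) and at 2 kPa (right). Msr1, Cd36 and Marco stand highest, and Folr2, Cd163 and Vsig4 stand below 1 CPM per kb in every library.

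With edgeR's quasi-likelihood test 0 of the 9 tested genes were called higher and 0 lower at 50 kPa, beside 3.45% of all 13155 genes (194 higher and 260 lower). With total counts in place of TMM factors the split over all genes was 77 higher and 257 lower, and the median over all genes moved to -0.16 (log2), against -0.028 with TMM. Fold changes were positive for 7 of the 9, with a median of 0.64 (log2), beside -0.028 over all genes tested. With TMM factors, groups did not overlap in 4 of the 9 (Cd36, Scarb1, Cd163 and Folr2), all higher at 50 kPa. Over all genes this held for 34.1% in either direction and for 17.2% higher at 50 kPa. The same 4 members had an unadjusted p under 0.05 by edgeR, beside 27.8% of all genes. Divided by total counts alone, the groups of Scarb1 overlapped. DESeq2 called 2 of the 9, Cd36 and Scarb1, both higher, beside 18.0% of the genes it adjusted.

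**Figure D2:**
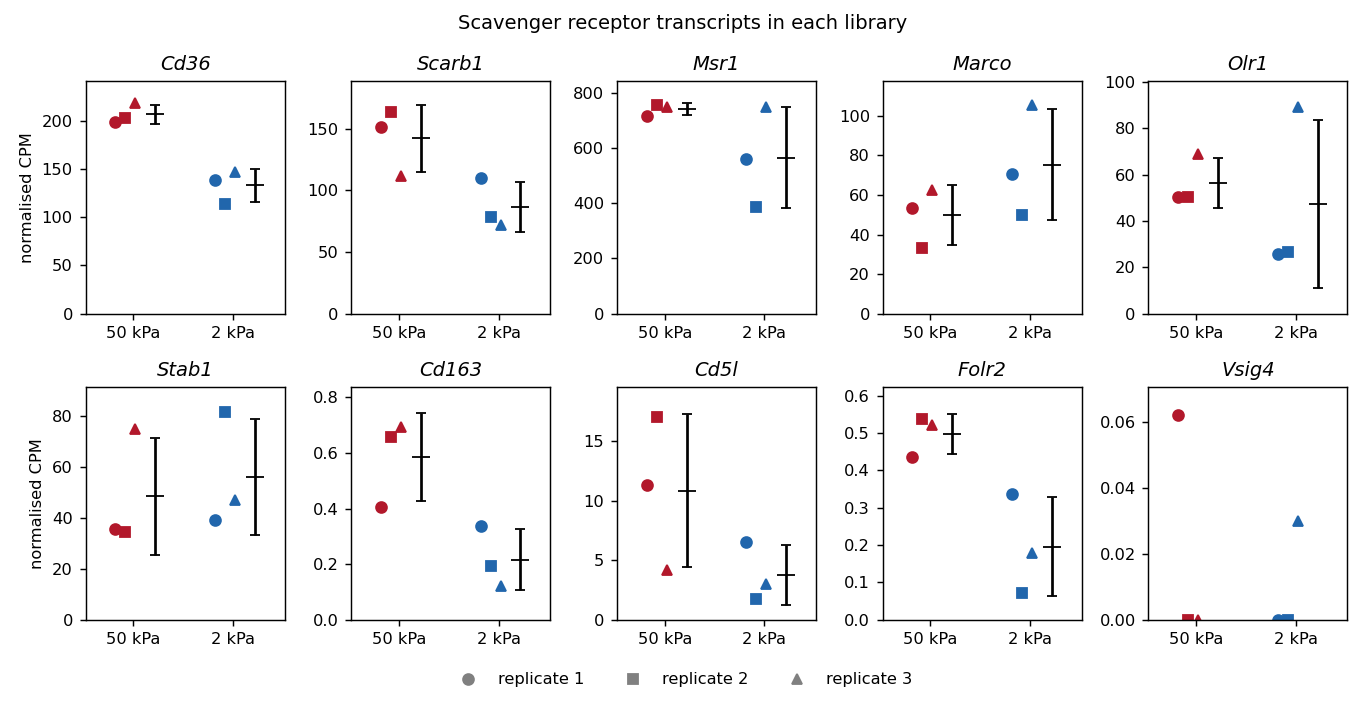
Normalised CPM of each gene in every library, 50 kPa left and 2 kPa right, with a marker shape for each replicate number and the mean ± SD beside the points (not drawn for Vsig4). The 3 values at 50 kPa lie above the 3 at 2 kPa for Cd36, Scarb1, Cd163 and Folr2, and the groups overlap for the other 6 genes.

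Cd36 (chr5:17781690-17888801, minus strand), the class B receptor for long-chain fatty acids and oxidised lipoproteins, had 199, 202 and 218 CPM in replicates 1 to 3 at 50 kPa, against 139, 113 and 147 CPM at 2 kPa. Every library at 50 kPa lay above every library at 2 kPa, and both groups were tight. Cd36 averaged 206 ± 10.2 CPM in the stiff cultures and 133 ± 17.4 CPM in the soft ones, a ratio of 1.55. Its log2 fold change was 0.64 ± 0.13 (SE) with an edgeR adjusted p of 0.0521, so the gene was not called. The adjusted p of Cd36 was 0.0429 with upper-quartile scaling and 0.000662 with DESeq2, so both of these called it, and it was 0.209 with high tension replicates 1 and 2 summed into 1 sample. Over the 15 alternatives the log2 fold change lay between 0.51 and 0.71.

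Scarb1 (chr5:125277087-125341094, minus strand), the class B receptor that takes up cholesteryl ester from high-density lipoprotein, had 151, 164 and 112 CPM at 50 kPa, against 110, 78.6 and 71.5 CPM at 2 kPa. The groups did not overlap with TMM factors, but high tension replicate 3 and low tension replicate 1 lay next to each other. High tension replicate 3 had 3854 counts of 36109809, and low tension replicate 1 had 4246 of 36270938. Divided by these totals alone, the groups overlapped. Scarb1 averaged 142 ± 27.3 CPM at 50 kPa and 86.7 ± 20.4 CPM at 2 kPa, with a log2 fold change of 0.71 ± 0.22 (edgeR adjusted p = 0.105). DESeq2 called it, with an adjusted p of 0.0236.

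Msr1 (chr8:39581685-39642673, minus strand), the class A receptor for modified lipoproteins, had 717, 756 and 748 CPM at 50 kPa, against 560, 385 and 749 CPM at 2 kPa. The groups overlapped, since low tension replicate 3 was as high as the libraries at 50 kPa. The coefficient of variation was 2.79% at 50 kPa and 32.3% at 2 kPa. At 0.39 ± 0.25 its log2 fold change did not pass (edgeR adjusted p = 0.333). Leaving out low tension replicate 3 gave 0.65, and leaving out low tension replicate 2 gave 0.17.

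Marco (chr1:120474538-120505024, minus strand), the class A receptor with the long collagenous stalk that binds bacteria and particles, ran the other way. It had 53.6, 33.3 and 62.6 CPM at 50 kPa, against 70.7, 49.7 and 105 CPM at 2 kPa. The groups overlapped, with low tension replicate 2 below high tension replicates 1 and 3. Marco stood at -0.59 ± 0.33 on the log2 scale (edgeR adjusted p = 0.289). It stood at -0.27 when low tension replicate 3 was left out and at -0.36 when high tension replicate 2 was. Within each replicate number Marco was lower at 50 kPa. With replicate number as a block it stood at -0.58 ± 0.10 (edgeR adjusted p = 0.0489), though the labels do not give such a pairing.

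Olr1 (chr6:129485244-129507165, minus strand), the lectin-like class E receptor for oxidised low-density lipoprotein, had 50.3, 50.3 and 68.8 CPM at 50 kPa, against 25.9, 26.7 and 89.0 CPM at 2 kPa. Low tension replicate 3 was the highest of the 6 libraries and replicates 1 and 2 at 2 kPa were the lowest. Its log2 fold change was 0.26 ± 0.50 (edgeR adjusted p = 0.754). Leaving out low tension replicate 3 gave 1.10, while leaving out low tension replicate 1 gave -0.032 and low tension replicate 2 gave -0.028.

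Stab1 (chr14:31139013-31168641, minus strand), the class H receptor stabilin-1, had 35.8, 34.7 and 75.0 CPM at 50 kPa, against 39.1, 81.9 and 47.3 CPM at 2 kPa. High tension replicate 3 and low tension replicate 2 stood above the other 4 libraries, and the groups overlapped. Stab1 stood at -0.21 ± 0.40 on the log2 scale (edgeR adjusted p = 0.75). Leaving out low tension replicate 2 gave 0.17, and leaving out high tension replicate 2 gave 0.0025. An exon of Stab1 overlaps Nt5dc2 on the opposite strand in the annotation. If strand was not used, reads of that stretch may have been left out or given to the wrong gene.

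**Figure D3:**
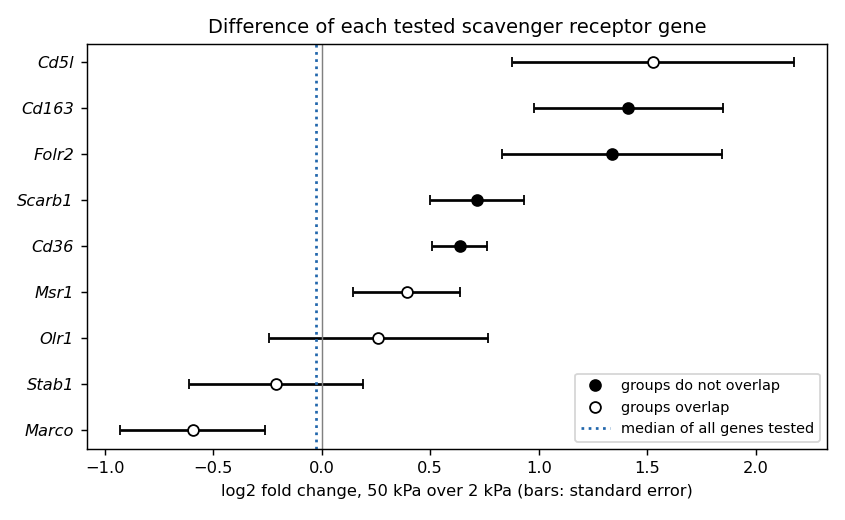
Log2 fold change of the 9 tested genes, 50 kPa over 2 kPa, with bars of 1 standard error, filled points where the 3 values of each group did not overlap, and a dotted line at the median of all genes tested. Cd5l has the largest value and the widest bar (1.53 ± 0.65), Cd163 and Folr2 follow, and Marco is the lowest at -0.59.

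Cd5l (chr3:87357881-87371073, plus strand), a secreted cysteine-rich domain protein of tissue macrophages, also called AIM, had 11.3, 17.1 and 4.20 CPM at 50 kPa, against 6.57, 1.75 and 2.97 CPM at 2 kPa. High tension replicates 1 and 2 were the highest, and high tension replicate 3 lay below low tension replicate 1. The log2 fold change of 1.53 ± 0.65 was the largest of the 9, with an edgeR adjusted p of 0.188. Leaving out high tension replicate 2 gave 1.05, and leaving out low tension replicate 1 gave 2.21.

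Cd163 (chr6:124304656-124330527, plus strand), the receptor for haemoglobin bound to haptoglobin, was counted 13, 22 and 24 times at 50 kPa, against 13, 8 and 4 times at 2 kPa. These counts are 0.404, 0.657 and 0.694 CPM at 50 kPa, and 0.336, 0.192 and 0.120 CPM at 2 kPa. High tension replicate 1 and low tension replicate 1 had the same count and differed by scaling alone. Its log2 fold change was 1.41 ± 0.44 (edgeR adjusted p = 0.109).

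Folr2 (chr7:101839988-101857194, minus strand), the folate receptor beta of resident macrophages, was counted 14, 18 and 18 times at 50 kPa, against 13, 3 and 6 times at 2 kPa. Its levels were 0.436, 0.537 and 0.521 CPM at 50 kPa, and 0.336, 0.0720 and 0.180 CPM at 2 kPa. Low tension replicate 1 lay closest to the stiff cultures, and the groups did not overlap. Folr2 stood at 1.34 ± 0.51 on the log2 scale (edgeR adjusted p = 0.154), at 2.00 when low tension replicate 1 was left out and at 0.92 when low tension replicate 2 was. An exon of Folr2 overlaps the predicted gene Gm10602 on the opposite strand.

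Vsig4 (chrX:96247203-96293438, minus strand), the complement receptor of Kupffer cells and other resident macrophages, had 2, 0 and 0 counts at 50 kPa, against 0, 0 and 1 at 2 kPa. It was left out by the filter on low counts and is not given a fold change. A count of 0 allows up to 3 counts, which is 0.0720 to 0.0933 CPM in these libraries, for counting error alone.

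**Figure D4:**
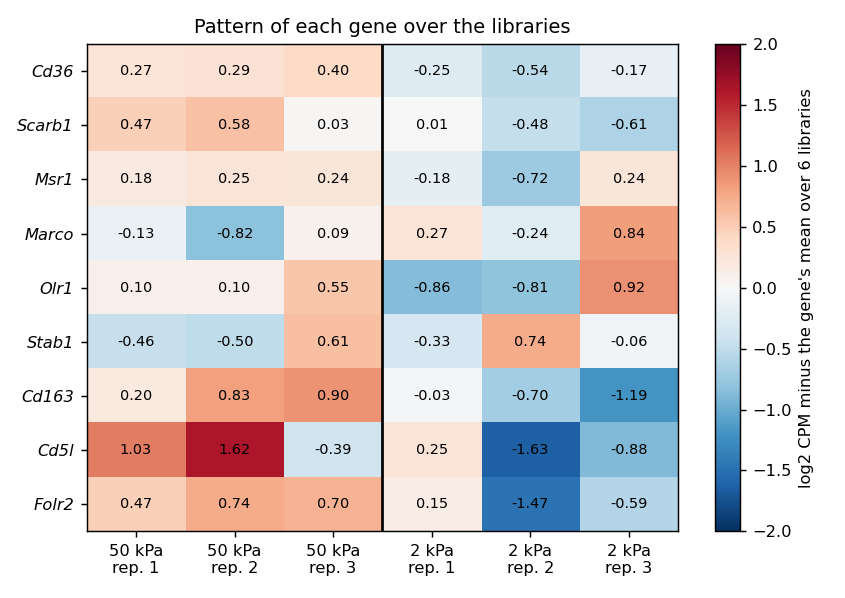
Log2 CPM of each tested gene minus its mean over the 6 libraries, with rows for genes and columns for libraries (50 kPa left of the line, 2 kPa right). Cd36 is above its mean in all 3 stiff cultures and below it in all 3 soft ones, whereas Stab1 is highest in low tension replicate 2 and high tension replicate 3.

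Likeness of patterns was measured as the root mean square distance of centred log2 CPM over the 6 libraries. All genes of a library share its depth and scaling factor. Cd36 lay closest to Tmem260 (0.056) and Dennd2a (0.068), out of 9607 genes of at least 5 CPM. Tmem260 itself rose by 0.57 ± 0.11 on the log2 scale (edgeR adjusted p = 0.0499), a call lost without any 1 of the 6 libraries, with RLE scaling (0.0546), with total counts (0.0846), with no low-count filter (0.0549), with the filter at 1 CPM (0.0584) and with high tension replicates 1 and 2 summed (0.198). Msr1 lay closest to the lysosomal membrane gene Lamp2 (0.046) and the lysosomal sulfatase gene Ids (0.063). Scarb1 lay closest to the small GTPase gene Rab31 (0.044) and the lysosomal mannosidase gene Manba (0.053). The nearest genes of the other members were farther away: Zfp503 at 0.17 and Ccdc86 at 0.19 for Marco, and Nrp2 at 0.17 for Olr1. For Stab1 they were S1pr1 at 0.13 and Trem1 at 0.15, and for Cd5l Pros1 at 0.21 and Eya1 at 0.25. Among the 7 members of at least 5 CPM, Cd36 and Msr1 were the closest pair (0.20) and Stab1 and Cd5l the farthest (1.54).

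Of 14 other scavenger receptor genes, 12 were tested, 1 rose and 1 fell, and their median log2 fold change was 0.47. Colec12, a collagenous class A relative with a lectin head, rose to 5.63, 6.15 and 4.57 CPM at 50 kPa, against 2.23, 1.56 and 1.71 CPM at 2 kPa. The groups were far apart, with a log2 fold change of 1.57 ± 0.22 (edgeR adjusted p = 0.0349). Megf10, an engulfment receptor, fell by 2.48 ± 0.46 on the log2 scale (edgeR adjusted p = 0.0481), and was low in both groups, at 0.0597 to 0.116 CPM at 50 kPa and 0.336 to 0.648 CPM at 2 kPa. The call of Colec12 was lost without high tension replicate 1 or 2 or low tension replicate 2 or 3 (adjusted p = 0.0566 to 0.187), and that of Megf10 without any 1 of the 6 libraries (0.0504 to 0.218). Both were lost with high tension replicates 1 and 2 summed (0.158 for Colec12 and 0.19 for Megf10), and Megf10 also with total counts (0.0502) and with no low-count filter (0.0586), while the filter at 1 CPM left it out.

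Genes that work with the members were taken as 6 further lists. The haemoglobin and haem list had 1 of 11 tested genes called, Slc48a1, a haem transporter of the lysosome, and a median of 0.40. Slc48a1 rose to 332, 319 and 313 CPM at 50 kPa, against 193, 206 and 183 CPM at 2 kPa, with a log2 fold change of 0.73 ± 0.10 (edgeR adjusted p = 0.0349). Blvrb, a biliverdin reductase, stood at 0.56 ± 0.19 (edgeR adjusted p = 0.127) in this list. The call of Slc48a1 was lost with total counts (adjusted p = 0.0856), with high tension replicates 1 and 2 summed (0.162) and without high tension replicate 1 or 2 or low tension replicate 2 or 3 (0.0546 to 0.187).

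The other 5 lists had 0 calls by edgeR. Lipoprotein cholesterol genes had a median of 0.38 over 10 tested, led by Apoe (1.94 ± 0.45, edgeR adjusted p = 0.0675) and the cholesterol exporter of lysosomes Npc1 (0.66 ± 0.16, edgeR adjusted p = 0.0761). Fatty acid genes had a median of 0.29 over 12 tested, with Slc27a1, a fatty acid transporter, at 0.41 ± 0.10 and Lpl, the lipoprotein lipase, at 1.45 ± 0.50 (edgeR adjusted p = 0.0720 and 0.132). CD36 partner and signalling genes had a median of -0.0045 over 13 tested, and the tetraspanin gene Cd81 and the integrin gene Itgb2 stood at 0.60 ± 0.13 and 0.69 ± 0.23 (edgeR adjusted p = 0.0602 and 0.12). Folate genes had a median of 0.0060 over 5 tested, with Fpgs, which adds glutamates to folate, at -0.58 ± 0.31 (edgeR adjusted p = 0.265). Macrophage transcription factor genes had a median of 0.14 over 15 tested, with Irf8 at -0.71 ± 0.30 (edgeR adjusted p = 0.188). At an unadjusted p under 0.05 edgeR gave 5 lipoprotein, 4 fatty acid, 3 partner, 0 folate and 1 transcription factor genes, and DESeq2 called 3, 2, 2, 0 and 1. Over all genes these shares were 27.8% and 18.0%.

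**Figure D5:**
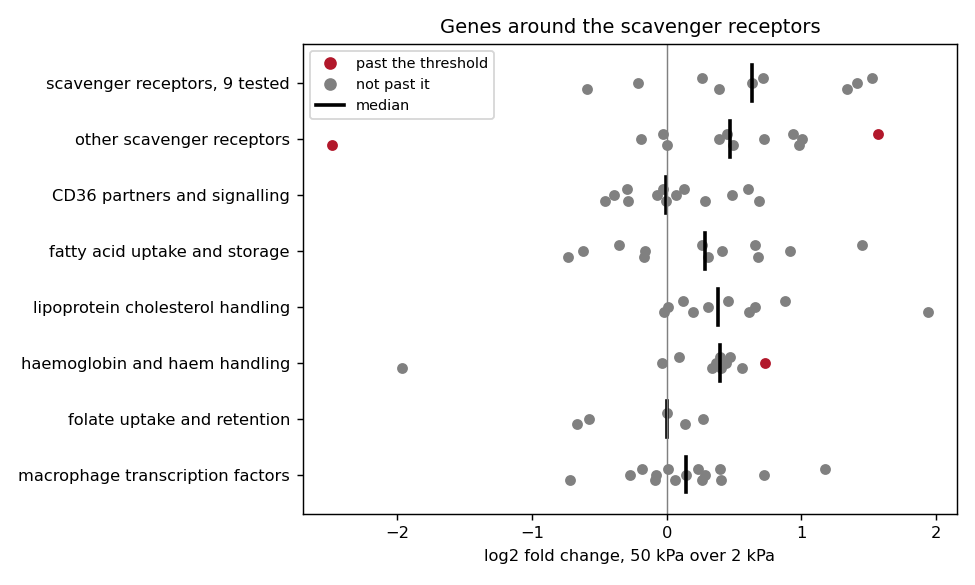
Log2 fold change, 50 kPa over 2 kPa, of each tested gene in the scavenger receptor set and in 7 lists around it, with a black bar at each median and red points for genes called by edgeR. The red points are Megf10 at -2.48, Colec12 at 1.57 and Slc48a1 at 0.73.

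Markers of the cell types that such cultures can hold were summed in each library. The summed level of 13 macrophage markers was 4340 to 4673 CPM at 50 kPa and 1829 to 3403 CPM at 2 kPa, with 0 of 10 tested genes called by edgeR (5 at an unadjusted p under 0.05, 4 called by DESeq2) and a median log2 fold change of 0.72. Among them Clec4f, a Kupffer cell marker, had 0 counts in every library. Alveolar macrophage markers summed to 4071 to 5619 CPM at 50 kPa and 2398 to 3238 CPM at 2 kPa, and 1 of 10 was called higher (Krt79, named after its values were seen). Krt79 was near the floor, with 15, 15 and 16 counts at 50 kPa, against 2, 1 and 0 at 2 kPa. Most of the alveolar sum came from Chil3 (2272 to 3391 CPM at 50 kPa and 1709 to 1932 CPM at 2 kPa), which edgeR did not call. Dendritic cell markers summed to 15002 to 23007 CPM at 50 kPa and 6075 to 12269 CPM at 2 kPa, with 0 of 10 called by edgeR (8 at an unadjusted p under 0.05, 8 called by DESeq2, 4 of them higher and 4 lower) and a median log2 fold change of -0.10. Cd74, H2-Aa, H2-Ab1 and Itgax made up most of that sum and had positive fold changes, while those of Flt3, Dpp4, Ccr7 and Cd86 were negative. Their part in the differences of Cd36, Scarb1, Cd163 and Folr2 was not tested.

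Neutrophil markers summed to 847 to 1450 CPM at 50 kPa and 3591 to 6724 CPM at 2 kPa, with 6 of 9 tested genes called lower. These calls and those of the B cell and platelet lists were lost without high tension replicate 1 or 2 or low tension replicate 2 or 3. B cell markers were called lower in 5 of 6 genes (5.67 to 13.5 CPM at 50 kPa and 58.5 to 109 CPM at 2 kPa) and platelet markers in 4 of 7 (76.4 to 242 CPM at 50 kPa and 217 to 376 CPM at 2 kPa). The largest part of the platelet sum was Pf4 (62.5 to 204 CPM at 50 kPa and 82.7 to 186 CPM at 2 kPa), which was not called. Monocyte markers were called lower in 2 of 6 genes, among them Vcan (named after its values were seen), with sums of 568 to 1400 CPM at 50 kPa and 823 to 1501 CPM at 2 kPa. Erythroid markers reached at most 1.01 CPM in sum, with Hbb-bs, Hba-a1 and Alas2 at 0 counts. Endothelial markers summed to 397 to 488 CPM at 50 kPa and 275 to 547 CPM at 2 kPa, and adipocyte and stromal markers to 2.02 to 3.94 CPM at 50 kPa and 6.08 to 25.0 CPM at 2 kPa, with Plin1 at 0 counts and 0 genes called by edgeR in either list. At an unadjusted p under 0.05 edgeR gave 1 endothelial and 5 stromal genes, and DESeq2 called 0 and 4. The fat cell genes Adipoq, Cidec and Plin1 had too few counts to be tested. Most of the endothelial sum came from Kdr and Vwf, while Cdh5 stood at 0.456 to 2.21 CPM over the 6 libraries. Tek, Emcn, Stab2 and Lyve1 of that list also had too few counts to be tested.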

How the data were processed

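PolyA RNA-seq libraries of 6 marrow cultures were used. Per the labels, libraries were made with the NEBNext Ultra II Directional kit. The authors deposited whole-number read counts per gene symbol, 1 table a library. The submitters' processing notes name FastQC 0.11.2, TopHat2 2.0.11, HTSeq 0.6.1p2, edgeR 3.16.5 and 3.8.6 and the builds mm10 and hg19. The sources used here do not state which gene models were counted or whether strand was used.

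The deposited counts were tested with edgeR 4.0.16 (R 4.3.3), using filterByExpr (minimum count 10, minimum total 15), TMM factors, glmQLFit and glmQLFTest, and a single stiffness term. Benjamini-Hochberg adjustment ran over all 13155 genes tested, with 0.05 as the threshold of a call. Normalised CPM divide by library size times TMM factor. The standard error is the log2 fold change divided by the square root of the F value. Alternatives were other scalings and filters, DESeq2 1.42.0, limma-voom (limma 3.58.1), replicate number as a block, leaving out each library, and summing high tension replicates 1 and 2. The fit was tested on simulated counts with known changes. It called 43% of the genes changed 2-fold, 97% of those changed 8-fold and 0.0695% of unchanged genes. A gene that changes 2-fold can thus go uncalled. The simulation drew each gene independently. It held no variation shared between genes and no likeness of high tension replicates 1 and 2. These rates may therefore not hold for the real libraries.

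Exon lengths came from GENCODE vM21 (GRCm38) and promoters from RefSeq (GRCm38.p6). Nearest patterns were ranked by root mean square distance of centred log2 CPM (prior count 2) over 6 libraries, among genes of at least 5 CPM, without pseudogenes, small RNAs or predicted genes. From each list around the members, the text names the 2 genes with the smallest p and every called gene; a few genes that these rules pick are not reported here. The members and lists were chosen with earlier results of these data known. Plots were drawn in Python 3.11.15 with matplotlib 3.10.9.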

Additional observations from a re-analysis of the deposited data

How the results depend on the processing

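The counts of called genes moved most. With upper-quartile scaling 1 of the scavenger receptor genes was called higher, with DESeq2 2 and with replicate number as a block 1 higher (Cd36) and 1 lower (Marco, adjusted p = 0.0489 by edgeR). The labels do not say that a number marks a shared animal or day, and deviations of same-numbered libraries correlated with r = 0.54, -0.11 and 0.49, so the block is not taken as a pairing. The calls of Megf10 and Tmem260 were lost with the block (adjusted p = 0.0567 and 0.0577 by edgeR). Over all genes the calls were 77 higher with total counts, 127 higher and 160 lower with at least 1 CPM in 3 libraries, 1121 and 1251 with DESeq2, 522 lower with the block, and 0 and 0 with high tension replicates 1 and 2 summed. Leaving out 1 library gave 0 to 255 higher and 0 to 256 lower genes, with 0 of the scavenger receptors in each direction, and 2062 to 4184 genes at an unadjusted p under 0.05. Without high tension replicate 1 or 2, or low tension replicate 2 or 3, at most 3 genes were called in a direction.

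Single genes turned their direction when a library was left out. Olr1 stood at -0.032 and -0.028 without low tension replicates 1 and 2 (range -0.032 to 1.10), and Stab1 at 0.0025 without high tension replicate 2 and 0.17 without low tension replicate 2 (range -0.66 to 0.17). Nrp2 stood at -0.057 and -0.13 without low tension replicates 1 and 2 (range -0.13 to 0.81). S1pr1 stood at 0.084, 0.16 and 0.39 without high tension replicates 1 and 2 and low tension replicate 2, and at 0.12 with the sum (range without 1 library -0.43 to 0.39). The log2 ratio of Scarb1 to Cd36 counts ranged from -0.12 to 0.28 without 1 library. The cause was not tested. The other 7 tested members kept their direction in all 15 alternatives that gave a value. Cd163 and Folr2 had no value with the filter at 1 CPM. At 4 to 24 and 3 to 18 counts a library, depth limits these genes.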

Other observations

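Within a library the ratio of 2 genes' counts does not depend on the scaling. These ratios were computed after the members' values had been seen, so they are descriptions to follow up. The count of Marco over that of Msr1, both class A receptors, was 0.0747, 0.0441 and 0.0837 at 50 kPa, against 0.126, 0.129 and 0.141 at 2 kPa. All 3 ratios at 50 kPa lay below all 3 at 2 kPa, while edgeR's fit without a replicate block called neither gene by itself. The mean ratio was 0.0675 ± 0.0208 at 50 kPa and 0.132 ± 0.00751 at 2 kPa (SD, n = 3), and the log2 difference was -1.02, with a 2-sided exact permutation p of 0.1, the smallest that 3 against 3 allows. It lay between -1.20 and -0.74 when each library was left out in turn.

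The count of Scarb1 over that of Cd36, both class B receptors, did not separate the groups. It was 0.761, 0.809 and 0.511 at 50 kPa, against 0.793, 0.693 and 0.487 at 2 kPa. The log2 difference was 0.078 (2-sided exact permutation p = 0.6), and it was -0.0028, -0.047 and -0.12 without high tension replicates 1 and 2 and low tension replicate 3. With 2 ratios tested, the Benjamini-Hochberg adjusted p-values were 0.2 and 0.6. This adjustment covers these 2 ratios only, and not their choice after the values were seen. The fold changes of Marco and Msr1 were already known to differ in sign. How often ratios of other gene pairs separate the groups was not computed.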
